A study of Mus musculus with 3 samples.

Results

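The proteasome genes examined here are the 47 of 31053 measured mouse genes whose symbols begin with Psma to Psmg and a digit, without the immunoproteasome genes Psmb8, Psmb9 and Psmb10. They were read in droplet-based 3' single-cell RNA sequencing of the bladder urothelium, the epithelium that lines the bladder. The 3 groups were wild type, Lpar6 knockout and Cab39l knockout, with a single library for each, made from cells pooled over 15 mice. The Lpar6 product is a lysophosphatidic acid receptor and that of Cab39l a partner of the LKB1 kinase, and the study asked what their loss does to basal and luminal urothelial cells. No group carried a further allele or treatment by its label, and strain, sex, age and the deleted part of each gene are not given in the sources used here. Because animals were pooled and a group is 1 library, differences could not be checked in replicates and no test was made. Levels are in CPM, the unique molecular identifiers (UMIs) of a gene over a class of cells, scaled so that all genes of the class reach the same total. Ranges in brackets are 95% bounds that cover counting error only. Beside a median over genes, they are the medians of the single genes' lower and upper bounds, not bounds of the median itself.

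The proteasome degrades proteins that carry ubiquitin chains. Its core, the 20S particle, is a barrel of alpha rings, which gate the entry, and beta rings, which hold the protease sites. The cap, the 19S particle, binds ubiquitin and uses a ring of ATPases to unfold proteins and feed them into the barrel. Core and cap subunits are made by all cells, while 3 of the beta subunits can be exchanged for immunoproteasome subunits in immune or inflamed cells.

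Of the 47 genes, 14 encode core subunits (Psma1 to Psma7 and Psmb1 to Psmb7) and 17 encode cap subunits, of which 6 are ATPases and 11 are not. A further 13 encode accessory proteins, namely 5 activators or activator copies, the inhibitor PI31 and 7 assembly chaperones. Of the other 3, Psma8 and Psmb11 encode core subunits of testis and thymus, and Psmc3ip matches the symbol pattern although its product, a partner in meiotic recombination, is no proteasome subunit. In each comparison between libraries in urothelial cells 42 of the 47 passed the filter on low values, which asked for 50 or more UMIs in the pair of libraries and for 20 CPM where the gene was higher. The 5 that did not pass were Psmf1, the gene of PI31, at 16.9, 16.8 and 17.4 CPM in urothelial cells (here and below in the order wild type, Lpar6 knockout, Cab39l knockout), Psme2b at 1.55, 1.65 and 1.14 CPM, Psmc3ip, Psma8 and Psmb11. Psma8 had 14, 27 and 15 UMIs. Psmb11 had 3 and 3 UMIs in the wild-type and Lpar6 knockout libraries and 0 of 159977320 UMIs in the Cab39l knockout library, which allows a level of up to 0.0188 CPM.

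Urothelial cells were barcodes with at least 5000 UMIs, at most 20% mitochondrial UMIs and at least 0.2% of UMIs from the uroplakins Upk1a, Upk1b, Upk2 and Upk3a. They numbered 3176, 4834 and 5466, with 78491895, 128620816 and 159977320 UMIs. Their median depths were 22252.5, 26994 and 29960.5 UMIs, and their median mitochondrial shares 9.02, 6.27 and 6.17%. Immune cells, defined by 14 leukocyte genes, numbered 620, 73 and 274, and 5 barcodes met both rules. Pairs of libraries shared 16 to 19 barcodes. Lpar6 was at 13.8 CPM in wild-type urothelial cells, at 12.1 CPM in the Cab39l knockout, and at 0 of 128620816 UMIs in the Lpar6 knockout, which allows up to 0.0233 CPM. Cab39l was at 112 CPM in wild type, 94.0 CPM in the Lpar6 knockout and 31.7 CPM in the Cab39l knockout, so its transcript was reduced but still counted in the library labelled as its knockout. The summed basal markers Krt5, Krt15, Krt14 and Trp63 were at 1555, 498 and 1546 CPM, and luminal markers at 3656, 3683 and 3703 CPM. Those 14 leukocyte genes were at 83.9 to 110 CPM in urothelial cells against 10342 to 12972 CPM in immune cells. They define the immune class, so this contrast follows from the rule and is no check of it. Some markers of other cells differed between the urothelial classes, with neutrophil markers at 47.5, 0.171 and 0.0375 CPM, erythroid markers at 308, 149 and 66.2 CPM and secretory genes of the male tract at 11.7, 2.56 and 313 CPM. Their part in the urothelial results was not tested.

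In wild-type urothelial cells the 14 core genes summed to 2347 CPM (2336 to 2358) and the 17 cap genes to 1555 CPM (1547 to 1564). The core sums of the knockouts were 3025 CPM (3015 to 3034) for Lpar6 and 3020 CPM (3012 to 3029) for Cab39l. The cap genes summed to 1621 CPM (1614 to 1627) and 1638 CPM (1632 to 1644). Both knockout libraries thus had more core UMIs than wild type, and cap UMIs closer to it. The cap sums hold only genes that match the symbol pattern. They leave out the cap partners Adrm1 and Sem1. Sem1 was at 300, 375 and 377 CPM, above every cap gene counted here and higher in both knockouts. The cap sums and the ratios below apply to the 17 genes only. The core-to-cap ratio was 1.51 (1.498 to 1.520) in wild type against 1.87 (1.86 to 1.88) and 1.84 (1.84 to 1.85) in the knockouts. With each gene divided by its transcript length it was 2.20, 2.68 and 2.66. A 3' tag counts a molecule once whatever its length, so the undivided ratio is the one of counted molecules, and the divided one is given beside it. Core and cap together made up 0.390, 0.465 and 0.466% of urothelial UMIs. Within the core, the alpha-to-beta ratio was 0.874, 0.797 and 0.785, so the beta genes exceeded the alpha genes in every library and by more in both knockouts.

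**Figure D1:**
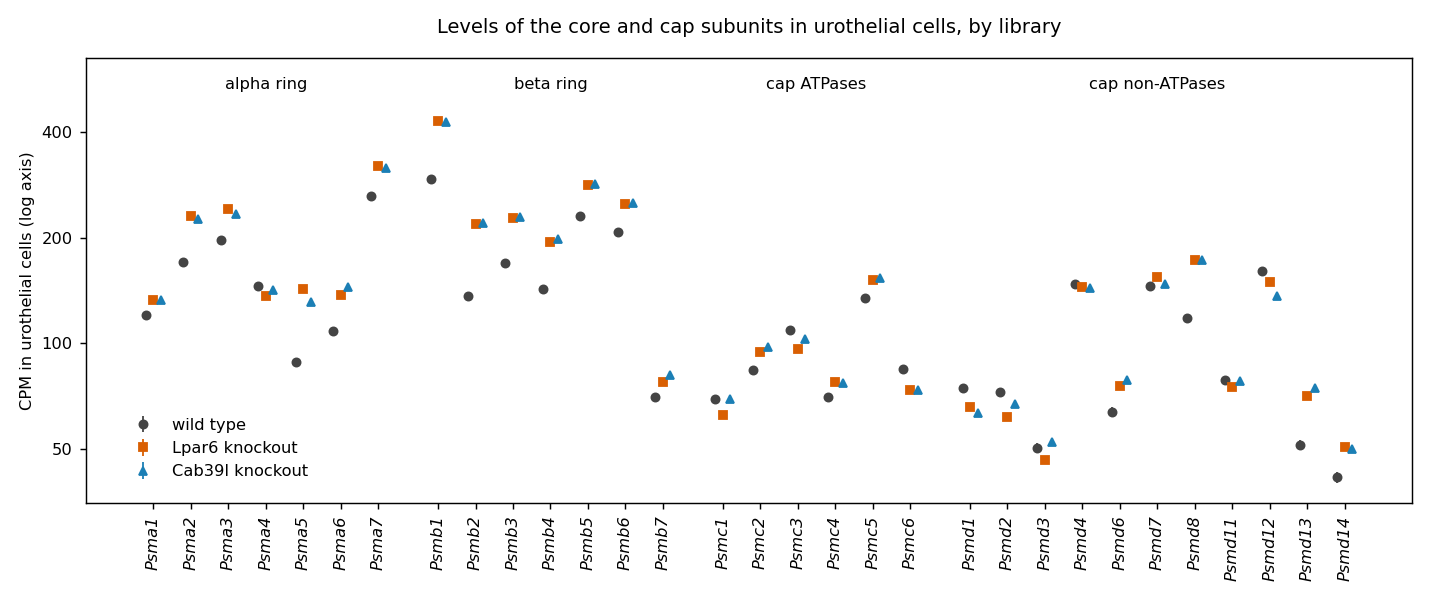
Levels of the 14 core and 17 cap genes in urothelial cells of each library, in CPM on a log axis, with circles for wild type, squares for the Lpar6 knockout and triangles for the Cab39l knockout and bars for 95% counting bounds, most of them smaller than the symbols. Psmb1 is highest in all 3 libraries, at 295, 431 and 427 CPM, and the knockout symbols lie close to each other and above wild type for 13 of the 14 core genes, Psma4 being the exception on this scale of totals.

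Levels within the core spanned 70.0 to 295, 77.4 to 431 and 81.3 to 427 CPM. Psmb1, a structural subunit of the beta ring, led in each library, followed by Psma7, Psmb5, Psmb6 and Psma3. Psmb7, which carries the trypsin-like site, was lowest in each. Per kilobase of the longest transcript, the order was led by Psmb5, which carries the chymotrypsin-like site, at 256, 314 and 317 CPM per kb, and by Psmb6, which carries the caspase-like site, at 215, 259 and 261 CPM per kb. Psmb7 was again last, at 24.6, 27.2 and 28.5 CPM per kb, by the length of its longest transcript, which is not protein-coding. Per kilobase of the longest protein-coding transcript, a scale added after seeing the data, Psmb7 was at 60.4, 66.7 and 70.1 CPM per kb and Psmb6 at 261, 313 and 316 CPM per kb. On that scale Psmb6 led and Psma2 was last in wild type, at 58.7 CPM per kb, while Psmb5 led and Psmb7 was last in both knockouts. The rings hold their subunits in equal number, but the highest core transcript exceeded the lowest by a CPM ratio of 4.21, 5.58 and 5.25.

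The 17 cap genes of the symbol pattern spanned 41.4 to 161, 46.4 to 173 and 49.9 to 173 CPM, and the ranks below are among them. Psmd12, a scaffold subunit of the lid, was the highest by CPM in wild type at 161 CPM, and stood at 150 and 137 CPM in the knockouts. Psmd8, another lid subunit, was the highest in both knockouts at 173 and 173 CPM, against 118 CPM in wild type. Per kilobase the ATPase gene Psmc5 led in all 3 libraries, at 96.4, 109 and 110 CPM per kb. Psmd3 was last on that scale, at 17.3, 16.0 and 18.1 CPM per kb. By the longest protein-coding transcript Psmc5 still led and Psmd3 was at 23.3, 21.6 and 24.4 CPM per kb, last in wild type only, with Psmd2 last in the Lpar6 knockout at 20.7 CPM per kb and Psmd1 in the Cab39l knockout at 20.3 CPM per kb.

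The promoters of these genes were read because the core and cap genes are known to share upstream regulators. RefSeq promoters of build GRCm38.p6, 250 bases before to 50 after the start site, were matched for 39 of the 47 genes, among them 11 of the 14 core and 14 of the 17 cap genes. Of 12 motifs searched on both strands, the 2 shown were picked after their counts were seen. The antioxidant response element core TGACNNNGC, read by cap'n'collar factors such as the products of Nfe2l1 and Nfe2l2, was found in 2 of 11 core and 2 of 14 cap promoters, against 14% of 27025 genes. These 4 promoters are shown because they hold that element, with its letters, or their reverse complement, in capitals and 10 flanking bases where the promoter holds them.
Psmb5, chr14:54618024-54618052, minus strand: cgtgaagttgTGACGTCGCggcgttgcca
Psmb6, chr11:70525338-70525366, plus strand: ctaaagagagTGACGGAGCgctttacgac
Psmc6, chr14:45329587-45329615, plus strand: ccagccagtaGCTAAGTCAggcattgctc
Psmd12, chr11:107479278-107479299, plus strand: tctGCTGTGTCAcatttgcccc
The elements of Psmb5 and Psmb6 lay 47 and 9 bases before the start site, those of Psmc6 and Psmd12 at 227 and 247 bases before it.

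The ETS-type motif CCGGAAG was found in 9 of 14 cap promoters and in 1 of 11 core promoters, against 9.93% of all genes. The windows nearest the start site are shown for the cap genes and for Psma6, the core gene with a match, with the motif or its reverse complement in capitals.
Psmc1, chr12:100110164-100110190, plus strand: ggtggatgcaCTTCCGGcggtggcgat
Psmc2, chr5:21786713-21786739, plus strand: cgcggagctaCTTCCGGtggggaagag
Psmc6, chr14:45329714-45329740, plus strand: ggcgggccagCCGGAAGgggcggagcc
Psmd2, chr16:20651616-20651642, plus strand: ccgcagggcgCTTCCGGtctggaggac
Psmd4, chr3:95042723-95042749, minus strand: tacagctgttCCGGAAGctgctgcgaa
Psmd6, chr14:14120974-14121000, minus strand: agagacgcgaCCGGAAGtcagactggc
Psmd11, chr11:80428594-80428620, plus strand: gagggcgggtCTTCCGGgtgtgtgttt
Psmd12, chr11:107479501-107479527, plus strand: gagcgggcgaCTTCCGGtgcgagtgac
Psmd13, chr7:140882378-140882404, plus strand: gcccgcggtgCCGGAAGtgagcgagca
Psma6, chr12:55398813-55398839, plus strand: cgccggtgctCCGGAAGcagtagccat
A CCAAT box was found in 6 of 11 core and 4 of 14 cap promoters, against 41.1% of all genes. The palindromic site of nuclear respiratory factor 1, which is not the product of Nfe2l1, was found in 3 of 11 core and 3 of 14 cap promoters, against 5.19%. These are matches of letters, and nothing was measured of what binds there.

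Against wild type, 13 of the 14 core genes were higher in urothelial cells of the Lpar6 knockout, where 28.1% of all 5518 genes were higher. The median log2 of the ratio of (CPM + 1) was 0.31 (0.28 to 0.35) for the core and -0.03 (-0.07 to 0.00) for the cap, and 8 of the 17 cap genes were higher. The median over all genes was -0.34. At least 1.5-fold higher were Psma5 and Psmb2, which is 2 of 31 core and cap genes against 1.47% of all genes. None of the 31 was as far lower, against 31.9% of all genes. The counting bounds of all 14 core genes excluded 0, 13 of them above it, while 8 cap genes lay above, 8 below and 1 across it.

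The Cab39l knockout was set against the same wild-type library, so both comparisons share whatever is particular to it, and their values are given only side by side. There 13 of the 14 core genes were again higher, where 31% of all 5530 genes were. The median log2 was 0.35 (0.33 to 0.38) for the core and 0.02 (-0.01 to 0.05) for the cap, with 9 of the 17 cap genes higher, and -0.31 for all genes. Psmb2 was the 1 gene of 31 at least 1.5-fold higher, against 1.21% of all genes, and none was as far lower, against 33.5%.

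Where the zero lies depends on the scaling. TMM factors, which assume that most genes do not differ, added 0.42 to every log2 value for the Lpar6 knockout and 0.41 for the Cab39l knockout, and median-of-ratios factors added 0.43 and 0.43. On either scale all 14 core and all 17 cap genes lay above 0. Values between 0 and about that shift below it thus change sign. Among them were Psma4 and those cap genes that lay below 0 by totals. With TMM factors 17 and 18 of the 31 genes were at least 1.5-fold higher, against 17.3 and 17.4% of all genes, and none lower, against 3.71 and 5.99%. The distance between core and cap does not depend on this choice. All values below are scaled by totals. Those of all urothelial cells against wild type stand against all-gene medians of -0.34 and -0.31.

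In the alpha ring, Psma5 was at 88.3 CPM in wild type, 143 CPM in the Lpar6 knockout and 131 CPM in the Cab39l knockout. Its log2 against wild type was 0.69 (0.65 to 0.73) and 0.57 (0.53 to 0.61), the highest of the ring in each. Psma2 was at 171, 230 and 227 CPM, with log2 values of 0.43 and 0.41. Psma4 was the core gene that did not follow the others. Its levels were 146, 136 and 142 CPM, with log2 values of -0.10 (-0.13 to -0.06) and -0.034 (-0.067 to -0.0017).

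All 7 beta ring genes were higher in both knockouts, where 28.1 and 31.0% of all genes were. Psmb2, a structural subunit, was at 137, 219 and 220 CPM, with log2 values of 0.68 (0.64 to 0.71) and 0.68 (0.65 to 0.72). Psmb1 had log2 values of 0.55 (0.52 to 0.57) and 0.53 (0.51 to 0.55). The genes of the protease sites were nearer to wild type. Psmb5 was at 230, 282 and 285 CPM, with log2 values of 0.29 and 0.30, and Psmb6 at 208, 250 and 252 CPM, with log2 values of 0.26 and 0.27. Psmb7 was at 70.0, 77.4 and 81.3 CPM, with log2 values of 0.14 and 0.21.

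The 6 cap ATPases were split, with 3 above and 3 below wild type in each knockout, where 28.1 and 31.0% of all genes were above. Psmc2 was at 84.0, 94.6 and 97.3 CPM, with log2 values of 0.17 and 0.21, and Psmc6 at 84.3, 73.4 and 73.6 CPM, with log2 values of -0.20 and -0.19. Psmc1 was at 69.3, 62.5 and 69.2 CPM. Among the 11 other cap genes, 5 and 6 were higher in the Lpar6 and Cab39l knockouts, against the same shares of all genes. The lid genes Psmd8 and Psmd13 were farthest above wild type. Psmd8 had log2 values of 0.54 (0.51 to 0.58) and 0.54 (0.51 to 0.57), and Psmd13 was at 51.3, 70.6 and 74.2 CPM, with log2 values of 0.45 (0.40 to 0.51) and 0.52 (0.47 to 0.58). Psmd12 had log2 values of -0.10 (-0.14 to -0.07) and -0.23 (-0.26 to -0.20).

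The knockout libraries can also be compared with each other, without wild type. The Lpar6 knockout against the Cab39l knockout gave a median log2 of -0.01 for the core and -0.02 for the cap. None of the 31 genes was 1.5-fold apart, against 0.547% of 4569 genes higher and 0.613% lower. The range ran from -0.17 (-0.22 to -0.12) for Psmd3 to 0.13 (0.10 to 0.16) for Psmd12. Psma5 was at 0.12 (0.10 to 0.15). So the core genes that stood above wild type stood at nearly one level in both knockouts.

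Transcript length moved with these differences. Across all genes, log2 against wild type was lower for longer transcripts, with Spearman coefficients of -0.69 (Lpar6 knockout, 5518 genes) and -0.73 (Cab39l knockout, 5530 genes), given as descriptions across genes that share these libraries. The shortest of 10 bins, up to 1.218 kb, had medians of 0.22 and 0.20, and the longest, from 7.326 and 7.317 kb, had medians of -0.77 and -0.85. Core transcripts were shorter, with a median of 1.22 kb (range 0.859 to 2.911 kb) against 1.98 kb (1.387 to 3.466 kb) for the cap. Between the knockouts the coefficient was 0.20.

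**Figure D2:**
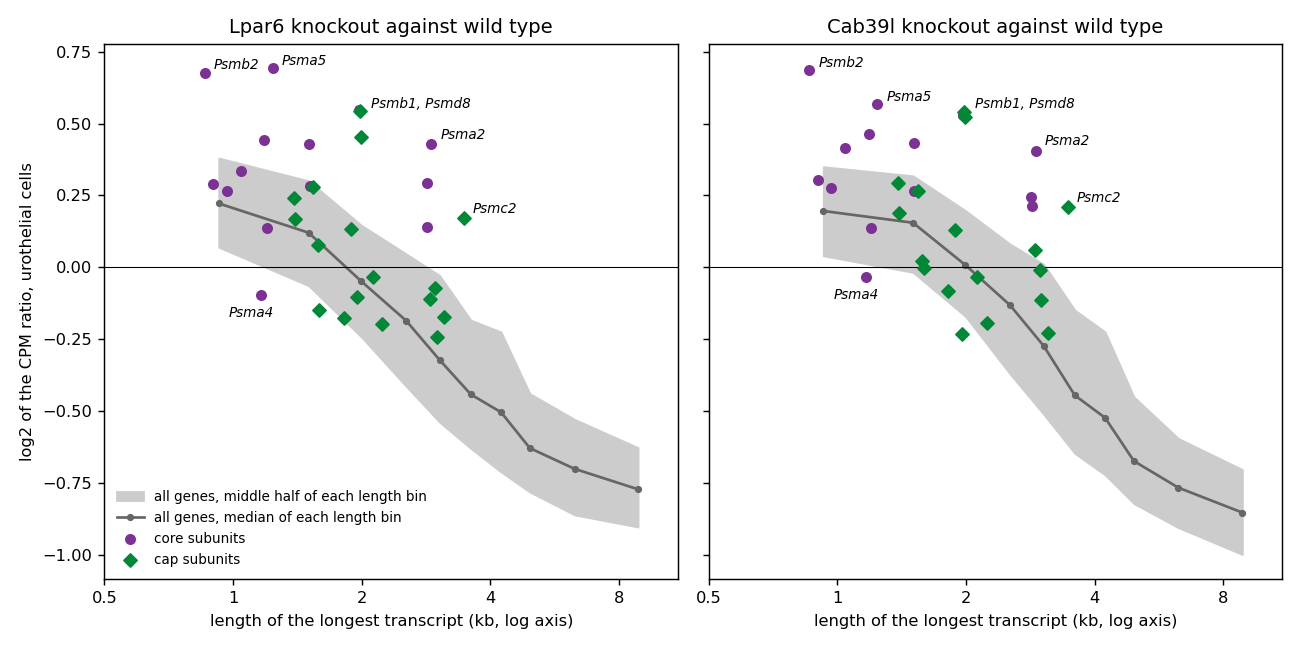
The log2 of the CPM ratio of each knockout to wild type in urothelial cells, against the length of the longest transcript in kb on a log axis, with purple circles for core genes, green diamonds for cap genes, and a line and band for the median and the interquartile range of all genes in each of 10 length bins. The line runs from 0.22 to -0.77 for the Lpar6 knockout and from 0.20 to -0.85 for the Cab39l knockout, and most core genes lie above it.

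With the median of its length bin subtracted, the core stood above the genes of its own length by 0.26 and 0.27 in the Lpar6 and Cab39l knockouts. The cap stood 0.12 and 0.11 above. The core-minus-cap difference was 0.35 and 0.33 before this step and 0.14 and 0.16 after it. The distance between core and cap was thus smaller among genes of like length, but kept its direction. With the longest protein-coding transcript as the length, a choice made after seeing the data, it was 0.081 and 0.10, and with the median transcript length 0.33 and 0.35. The height above the bins also depended on the length used. By the longest protein-coding transcript the core stood 0.16 and 0.22 above its bins and the cap 0.075 and 0.12. By the median transcript length the core stood 0.56 and 0.53 above them and the cap 0.23 and 0.18. Where core and cap genes shared a bin, the core median was the higher each time. Between 1.239 and 1.591 kb, Psma5, Psma7 and Psmb3 had a median of 0.43 in each knockout, against 0.17 and 0.19 for 5 cap genes. Between 2.846 and 3.112 kb, Psma2, Psma3 and Psmb7 had medians of 0.29 and 0.25, against -0.14 and -0.06 for 4 cap genes. Between 1.819 and 2.234 kb the bin held Psmb1 alone from the core, at 0.55 and 0.53, and 7 cap genes with a median of -0.03 in each. These bins rest on longest transcripts, which are not protein-coding for Psma7, Psmb3 and Psmb7. Their longest protein-coding ones, of 1.157, 0.766 and 1.16 kb, are shorter than the ranges they were placed in. Cap genes such as Psmd3, at 2.148 kb, are affected too.

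Relative to its length bin, 5 of the 31 genes were at least 1.5-fold higher in the Lpar6 knockout, against 5.26% of all genes, and 2 in the Cab39l knockout, against 4.99%. None was as far lower, against 2.14 and 2.08%. Psma2 led, at 0.75 and 0.68. The others in the Lpar6 knockout were Psma3 at 0.62, Psmc2 at 0.61, Psmb1 at 0.60 and Psmd8 at 0.59, and in the Cab39l knockout Psmc2 at 0.65. Psmc2 and Psmb7 are among the genes whose longest transcript is not protein-coding. With the longest protein-coding transcript, 1.785 and 1.16 kb, Psmc2 was at 0.20 and 0.17 and Psmb7 at -0.02 and 0.04. At the other end were Psma4, at -0.32 and -0.23, and Psmc1, at -0.27 and -0.16. By longest transcripts Psmb6 was the beta gene closest to its bin, at 0.04 and 0.08. Psmd12 was lowest of the lid and base genes without ATPase activity, at -0.05 and -0.24, and Psmc6 was at -0.15 and -0.20.

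The mitochondrial share of a cell also moved with the core. Among wild-type urothelial cells, core genes summed to 2839 CPM (2812 to 2865) in 540 cells with 4 to 6% mitochondrial UMIs and to 1752 CPM (1732 to 1773) in 925 cells with 12 to 20%. The cap genes went from 1736 to 1386 CPM and the core-to-cap ratio from 1.64 to 1.26. In the Lpar6 knockout the core went from 3154 to 2607 CPM between the same classes, with 1843 and 355 cells. In the Cab39l knockout it went from 3112 to 2495 CPM, with 2332 and 539 cells. Core levels were thus lower in cells with a high mitochondrial share in every library, and the distance was largest in wild type. The CPM total includes mitochondrial UMIs, so a higher share by itself lowers the CPM of the other genes. How much of these differences that makes up was not tested. The core-to-cap ratio does not depend on that total.

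**Figure D3:**
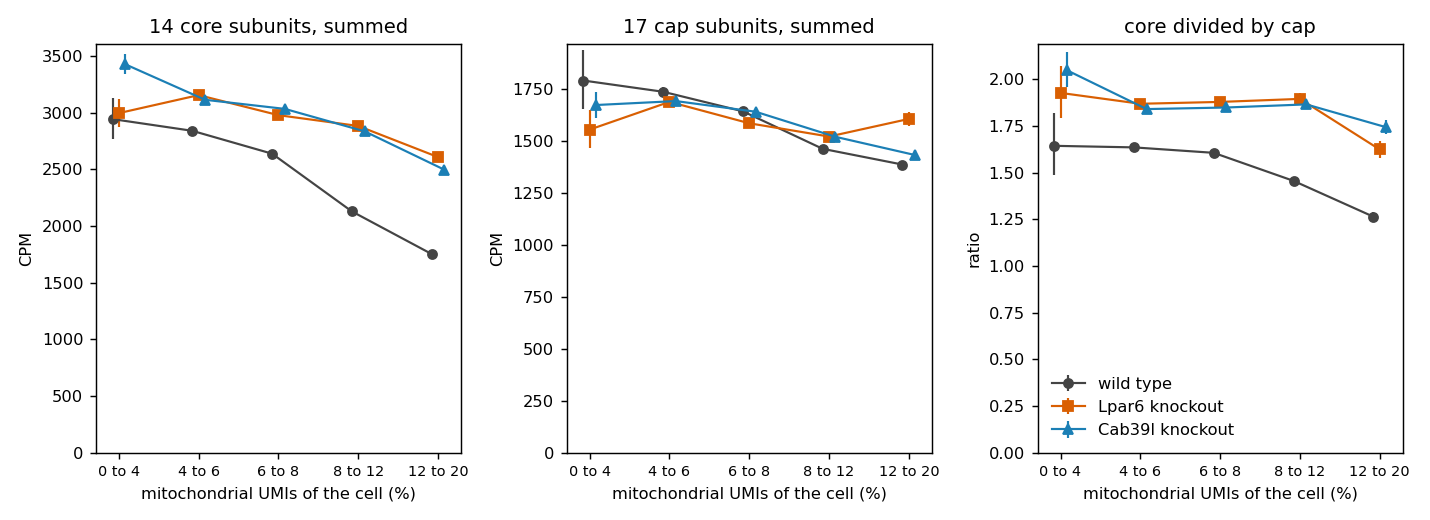
Summed CPM of the 14 core genes, of the 17 cap genes and their ratio in urothelial cells, by the percent of mitochondrial UMIs of the cell, with a line for each library and bars for 95% counting bounds. The wild-type core line ends at 1752 CPM in the class of 12 to 20%, where the knockout lines end at 2607 and 2495 CPM, while the cap lines end at 1386, 1605 and 1431 CPM.

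Gene by gene, cells with 12 to 20% against those with 4 to 6% of the same library had a median core log2 of -0.72 (-0.79 to -0.65) in wild type, against -0.22 (-0.31 to -0.14) and -0.31 (-0.38 to -0.25) in the Lpar6 and Cab39l knockouts. All 14 core genes were lower in each library, where 29.7, 41.6 and 46.7% of all genes were lower. At least 1.5-fold lower in wild type were 10 core and 3 cap genes, against 9.56% of all genes. In the knockouts none of the 31 was that far lower, against 2.47 and 1.77%. Psmb1 was the farthest in wild type, at -1.25. Cap medians were -0.31, -0.05 and -0.22, and all-gene medians 0.42, 0.11 and 0.04. Relative to the length bin, the core medians were -0.38, -0.09 and -0.08 and the cap medians -0.26, 0.03 and -0.09. The core drop in the knockouts was thus small among genes of like length. In the Cab39l knockout it was no larger than that of the cap. Depth moved along with this share in every library, from medians of 25753.5 to 16519 UMIs per cell in the wild-type classes. It went from 28448 to 12886 UMIs in the Lpar6 knockout and from 32774 to 14862 UMIs in the Cab39l knockout. Depth and mitochondrial share were not separated in this comparison. Short transcripts were lower and long ones higher in cells with a high share in every library. The shortest and longest length bin had medians of -0.51 and 0.84 in wild type. They were -0.31 and 0.48 in the Lpar6 knockout, and -0.27 and 0.46 in the Cab39l knockout.

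Cells alike in depth and mitochondrial share were therefore compared as well, a choice made after seeing the data. Cells of 15000 to 40000 UMIs and 4 to 8% mitochondrial UMIs numbered 889, 3137 and 2946. In them the core-to-cap ratio was 1.60, 1.84 and 1.82. The core medians against wild type were 0.20 (0.16 to 0.26) and 0.21 (0.14 to 0.27), with 13 of 14 core genes higher in each, where 31.8 and 34.7% of all genes were. The cap medians were -0.02 and 0.02, and the medians over all genes -0.18 and -0.15. Relative to length, the core stood 0.19 and 0.17 above its bins, and the cap 0.04 and 0.03. None of the 31 genes was 1.5-fold higher, against 0.723 and 0.35% of all genes. Psmb2 was farthest, at 0.53 (0.48 to 0.58) and 0.51 (0.46 to 0.56), and Psma4 was at -0.16 (-0.21 to -0.11) and -0.08 (-0.13 to -0.03). The core distance to wild type was thus smaller in these cells, with the same order of core over cap. By single classes of mitochondrial share, the core medians were 0.12 (0.07 to 0.18) and 0.099 (0.05 to 0.15) at 4 to 6%, 0.14 and 0.19 at 6 to 8%, 0.40 and 0.41 at 8 to 12%, and 0.60 (0.48 to 0.71) and 0.54 (0.45 to 0.64) at 12 to 20%. Below 4%, where wild type had 22 cells, they were 0.0018 (-0.42 to 0.37) and 0.16 (-0.21 to 0.53). Relative to length, the core stood 0.087 and 0.053 above its bins at 4 to 6% and 0.49 and 0.43 above them at 12 to 20%, and the all-gene medians went from -0.12 and -0.11 to -0.41 and -0.47. The distance of the core from wild type was thus larger in cells with a high share than in those with a low one, in both knockouts.

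Cells were also ordered within each library from luminal to basal by marker genes, which gives ranges of a score and not cell types. From the most luminal to the most basal of 4 equal groups, the core sum went from 2523 to 2360 CPM in wild type, from 3252 to 2875 CPM in the Lpar6 knockout, and from 3175 to 2913 CPM in the Cab39l knockout. The median core log2 of basal over luminal was -0.11, -0.17 and -0.14, and the cap median -0.09, -0.12 and -0.09. Lower in the basal group were 24, 31 and 29 of the 31 genes, where 51.9, 54.3 and 57.6% of all genes were lower. None was 1.5-fold apart, against 3.33, 1.13 and 2.49% of all genes lower and 2.53, 1.11 and 1.93% higher. Psmb2 was the lowest in each library, at -0.34, -0.35 and -0.32. The basal groups were shallower, with median depths of 17464, 23020 and 19892 UMIs against 29352.5, 28372 and 35131 UMIs.

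At the level of single cells the set was seen broadly. A median of 27, 29 and 29 of the 31 genes had at least 1 UMI per urothelial cell. With each cell thinned to 5000 UMIs, which left out no cell, the mean was 13.1 ± 3.2, 15.0 ± 3.1 and 14.9 ± 3.0 genes (SD over 3176, 4834 and 5466 cells, which are not replicates). Core UMIs per thinned cell averaged 11.1, 15.0 and 14.7, and cap UMIs 7.53, 8.21 and 8.15.

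Of the 4 activator genes that passed the filter, 3 and 2 stood lower than wild type for Lpar6 and Cab39l loss, beside all-gene medians that were also below 0. Only 28.1 and 31.0% of all genes stood higher. Psme3 encodes PA28 gamma, the nuclear activator. It was at 38.2, 22.2 and 25.3 CPM, with log2 values of -0.76 (-0.83 to -0.68) and -0.58 (-0.65 to -0.51), and at -0.57 and -0.45 relative to its length bin. Psme4, which encodes the large activator PA200, was at 59.9, 35.9 and 32.3 CPM, with log2 values of -0.72 and -0.87. Its transcript of 6.491 kb is long, and relative to its length bin it was at -0.02 and -0.11. The other pair, Psme1 and Psme2, encode the alpha and beta subunits of PA28, which form a mixed ring. Psme1 was at 107, 93.1 and 107 CPM and Psme2 at 86.2, 113 and 115 CPM. Their ratio was 1.24 (1.201 to 1.280) in wild type but 0.824 (0.804 to 0.844) and 0.931 (0.912 to 0.951) in the knockouts, so Psme1 had the more UMIs in wild type and Psme2 in both knockouts. Per kilobase the Psme1-to-Psme2 ratio was 0.601, 0.399 and 0.451 by the longest transcripts, and 1.07, 0.713 and 0.806 by the longest protein-coding ones. The per-kilobase order in wild type thus depended on the length used, while by UMIs Psme1 was the higher. Psme1 and Psme2 lie close together on chromosome 14, on which Lpar6 and Cab39l also lie. Psmb5, Psmb11, Psmc6 and Psmd6 lie there too. Relative to length, 10.1% of 188 chromosome 14 genes were at least 1.5-fold higher in the Lpar6 knockout and 5.85% lower, against 5.26 and 2.14% of all genes. In the Cab39l knockout 7.10 and 3.28% of 183 were, against 4.99 and 2.08%. The part of this in the values of these genes was not tested. Psme2b, a near-identical copy of Psme2, could take or give counts.

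The 7 assembly chaperones had medians of 0.19 and 0.24 and all lay above 0 in both knockouts, where 28.1 and 31.0% of all genes did. Psmg1, which helps build the alpha ring, was at 20.1, 30.4 and 28.8 CPM, with log2 values of 0.57 and 0.50. Psmd9, a chaperone of the cap base, was at 32.7, 44.4 and 41.0 CPM, and at 0.61 and 0.45 relative to its length bin. Psmd5, another base chaperone, was at 29.4, 29.4 and 31.4 CPM, which is 0.51 and 0.61 above its bin. Psmg4 was at 50.7, 59.9 and 54.4 CPM, and at 0.01 and -0.09 relative to its bin. Psmg2, the lowest chaperone relative to length in the Lpar6 knockout, at 0.0071, was at 19.9, 21.8 and 24.2 CPM.

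For the immunoproteasome, the constitutive gene of each protease site was set against the gene that replaces it. In wild-type urothelial cells Psmb5 exceeded Psmb8 by 5.66 (5.45 to 5.88), and the knockout ratios were 3.83 (3.74 to 3.91) and 4.94 (4.83 to 5.06). Psmb6 over Psmb9 was 12.1, 8.89 and 11.1. Psmb7 over Psmb10 was 2.99, 2.84 and 2.96. Per kilobase these ratios were 12.01, 8.12 and 10.5 for Psmb5 over Psmb8, 36.0, 26.5 and 33.3 for Psmb6 over Psmb9, and 1.38, 1.31 and 1.36 for Psmb7 over Psmb10, the last with the longer, non-coding transcript of Psmb7. By protein-coding transcripts Psmb7 over Psmb10 was 3.38, 3.21 and 3.34. The constitutive gene was the higher one at each site in every library on these scales. Psmb8 was at 40.7, 73.8 and 57.6 CPM and Psmb9 at 17.3, 28.1 and 22.6 CPM.

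Of 31 other genes of the pathway found in the files, 29 passed the filter. Past 1.5-fold, 3 of them stood above wild type and 7 below it for Lpar6 loss, and 2 and 5 for Cab39l loss, beside the shares of all genes given above. Rps27a, which encodes ubiquitin fused to a ribosomal protein, was the 1 higher in both, at 4343, 6973 and 6548 CPM. The 4 lower in both had long transcripts, of 4.654 to 9.553 kb. Nfe2l1, whose product induces proteasome genes when degradation is impaired, was at 192, 90.4 and 70.0 CPM, with log2 values of -1.08 and -1.45, and -0.45 and -0.77 relative to its length bin. Ddi2, the protease that activates that factor, was at 137, 59.4 and 59.0 CPM, and at -0.42 and -0.35 relative to its bin. The others were Ube3c, a ubiquitin ligase bound to the proteasome, and AI314180, the gene of the proteasome adaptor ECM29. Nfe2l2 was at 306, 250 and 240 CPM. Pomp, which encodes the maturation factor of the core, was at 301, 350 and 321 CPM, and Adrm1, a ubiquitin receptor of the cap, at 52.9, 51.03 and 60.4 CPM.

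Immune cells gave a second view of the balance. They were shallow, with median depths of 3078.5, 2366 and 3102 UMIs, and held urothelial RNA, with uroplakin levels at 11.8, 17.2 and 12.2% of those in urothelial cells. Their make-up differed between libraries. Neutrophil markers were at 7839, 356 and 6.08 CPM, with S100a9 and Retnlg at 0 in the Cab39l knockout, and secretory genes of the male tract at 76.7, 4.19 and 10722 CPM. B cell markers were at 1033, 1938 and 1536 CPM and macrophage or dendritic cell markers at 17274, 15343 and 16249 CPM. The part of these differences in the immune values was not tested.

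In immune cells the core sums were 3222 (3152 to 3293), 3185 (2963 to 3420) and 3254 CPM (3158 to 3353). The cap genes summed to 1762, 1682 and 1642 CPM. The core-to-cap ratio was 1.83 (1.76 to 1.90), 1.89 (1.68 to 2.14) and 1.98 (1.88 to 2.09). Against wild-type immune cells, the core medians were -0.04 and -0.04 and the cap medians -0.08 and -0.09. The medians over all genes were lower, at -0.16 and -0.29. In the Lpar6 knockout 2 of the 31 genes were 1.5-fold lower and none higher, against 24.9 and 8.46% of all genes. In the Cab39l knockout none was that far apart, against 32.2% lower and 9.76% higher. The Lpar6 knockout had 761 core UMIs from 73 cells. Its single core genes had lower and upper bounds with medians of -0.47 and 0.39. That range holds the urothelial core median of 0.31. As sums, the immune core of this knockout and of wild type lay closer together than the urothelial sums of 3025 and 2347 CPM. In the Cab39l knockout the single-gene bounds had medians of -0.20 and 0.20. These medians do not reach the urothelial core median of 0.35, on this scale of totals.

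Immune against urothelial cells of the same library had a median log2 over the 31 genes of 0.37 (0.21 to 0.52) in wild type, against 0.06 (-0.49 to 0.60) and 0.06 (-0.17 to 0.26) in the knockouts. The medians over all genes were 0.07, 0.23 and 0.11. Higher in immune cells in all 3 libraries were 15 of the 31 genes, and lower in all 3 were 6, where 36.7 and 33.8% of 5097 genes were so. In single libraries 24, 16 and 18 of the 31 were higher, where 52.6, 58.2 and 55.8% of all genes were. At least 1.5-fold higher were 5, 2 and 0 of the 31, against 30.6, 36.8 and 27.9% of all genes, and as far lower 0, 2 and 2, against 27.1, 24.1 and 21.7%. The core median was 0.46, 0.08 and 0.07, beside immune core sums of 3185 to 3254 CPM in every library and urothelial core sums of 2347, 3025 and 3020 CPM.

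**Figure D4:**
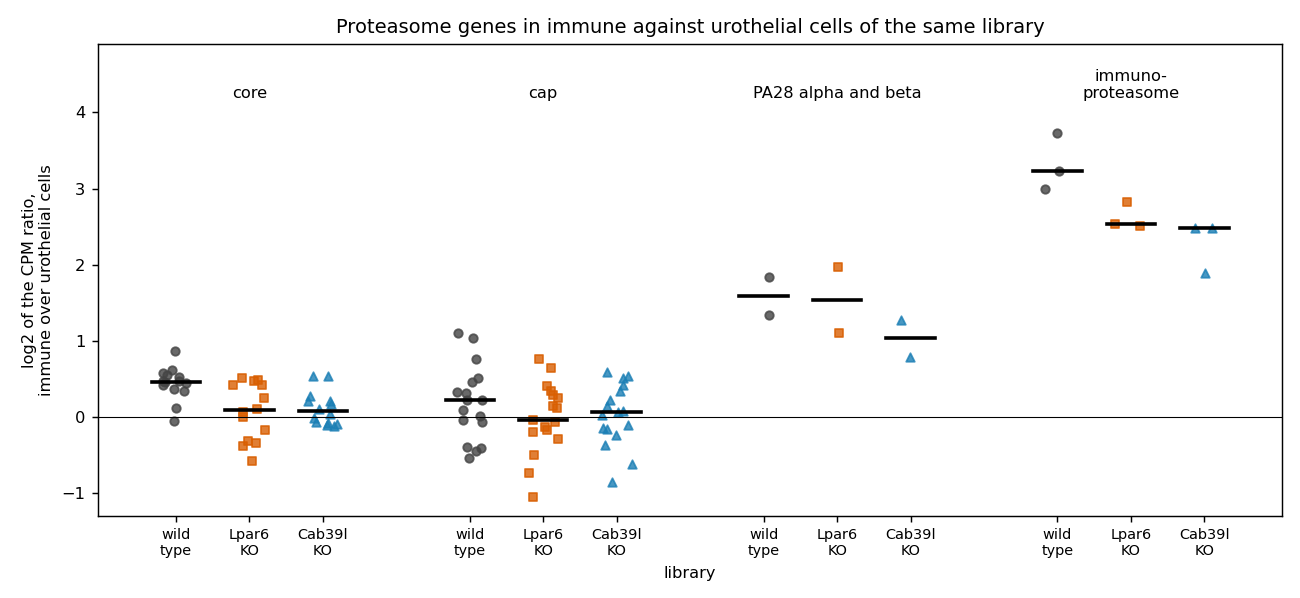
The log2 of the CPM ratio of immune to urothelial cells of the same library, with a point per gene and a bar at the median, for core, cap, PA28 and immunoproteasome genes. The core bar lies at 0.46 in wild type and at 0.08 and 0.07 in the knockouts, and the immunoproteasome genes lie between 1.88 and 3.73.

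Of the 47 genes, the highest in immune cells by mean log2 over the libraries, among those that passed the filter in each, were Psme1 at 1.84, 1.97 and 1.27, Psme2 at 1.33, 1.10 and 0.79, and Psmd8 at 1.04, 0.76 and 0.34. Psme1 was at 384, 368 and 261 CPM in immune cells. The lowest were Psme4 at -0.67, -1.05 and -0.53, Psmd12 at -0.54, -1.06 and -0.63, and Psmd7 at -0.40, -0.74 and -0.86. Psmd12 was at 110, 71.1 and 88.2 CPM in immune cells. At the protease sites the constitutive share was smaller than in urothelial cells. Psmb5 over Psmb8 was 0.451 (0.410 to 0.496), 0.357 (0.248 to 0.506) and 0.860 (0.746 to 0.991). Psmb6 over Psmb9 was 1.18, 1.2 and 1.77, and Psmb7 over Psmb10 was 0.503, 0.684 and 1.14. Per kilobase the ratios were 0.957, 0.758 and 1.82 for Psmb5 over Psmb8, 3.52, 3.58 and 5.29 for Psmb6 over Psmb9, and 0.231, 0.315 and 0.524 for Psmb7 over Psmb10, or 0.569, 0.773 and 1.29 by protein-coding transcripts. Each ratio was below its urothelial counterpart in each of the 3 libraries. In Cab39l knockout immune cells, division by length could change which gene of the pair was the higher, for Psmb5 and for Psmb7.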

How the data were processed

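The authors deposited unnormalized UMI counts for each gene and barcode. Per the submitters' processing notes, the authors used Cell Ranger 3.0.2 and build mm10. Further steps are not given in the sources used here. No doublet caller was run, and alternatives left out the deepest 6% of urothelial cells or cells with immune UMIs. Immune cells had at least 1000 UMIs, at most 20% mitochondrial UMIs and 0.5% or more from 14 leukocyte genes, above the uroplakin share. Counts were summed per class and library and scaled by their total, and log2 ratios used a pseudocount of 1 CPM. Transcript lengths came from GENCODE vM21, which held 31011 of 31053 genes, in 10 equal bins. Bounds are exact Poisson or binomial at 95%, those beside a median of genes are medians of single-gene bounds, and a 0 allows 3 counts. A library is 1 sample, so nothing was tested. Depth was 238936 to 2530272 UMIs for immune and 78491895 to 159977320 UMIs for urothelial sums. Named are the targeted genes, each group's highest and lowest by length-relative log2, core or cap genes 1.5-fold apart, the catalytic pairs, the activators, genes with 3 or fewer UMIs, pathway genes 1.5-fold apart in both knockouts, and the 3 highest and lowest in immune cells. The members, lists and comparisons were chosen with earlier results of these data known. Alternatives covered scaling, pseudocount, filters, weights, depth, mitochondrial share, uroplakin share and length definition. The steps were tested on simulated data with set fold changes, a set length trend and counting error, among 5444 genes for the Lpar6 and 5468 for the Cab39l knockout. Changed genes came within 0.3 of their log2 in 100% of cases at each fold, except 95.3% of 64 genes at 4-fold for the Cab39l knockout. The length-relative core-minus-cap differences of 0.14 and 0.16 are smaller than that tolerance, so the simulation does not bear on them. The tools were pandas 2.3.3, numpy 2.4.6, matplotlib 3.10.9 and scipy 1.17.1, run under Python 3.11.15.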

Additional observations from a re-analysis of the deposited data

How the results depend on the processing

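No paired analysis was possible because each group had 1 library and the labels gave no shared replicate numbers. Under the alternatives, 116 recomputed values moved by less than their counting bounds allow, or by under 1.5 times for counts, and 65 moved further. The core medians and the core-minus-cap differences kept their sign under each, and the cap median of the Lpar6 knockout, near 0, did not. In each pair below the Lpar6 knockout comes first and the Cab39l knockout second. TMM factors gave core medians of 0.73 and 0.76, cap medians of 0.38 and 0.43 and 17 and 18 genes at least 1.5-fold higher, and median-of-ratios factors gave 0.74 and 0.78, 0.40 and 0.45 and again 17 and 18 genes. Both left 2 genes 1.5-fold higher relative to length in the Lpar6 knockout. At most 10% mitochondrial UMIs gave core medians of 0.19 and 0.23, a cap median of -0.072 in the Lpar6 knockout, and 0 genes 1.5-fold higher in either knockout, with or without regard to length. With every cell given equal weight the core medians were 0.40 and 0.41, the cap median of the Lpar6 knockout 0.035, the length-relative core-minus-cap difference of the Cab39l knockout 0.22, the genes 1.5-fold higher 4 and 4, those of the Cab39l knockout relative to length 4, and the core-to-cap ratios 1.47, 1.84 and 1.83 with wild type first. Cells of 15000 to 40000 UMIs and 4 to 8% mitochondrial UMIs, added after seeing the data, gave core medians of 0.20 and 0.21, ratios of 1.60, 1.84 and 1.82, and 0 genes 1.5-fold higher, also relative to length. The length-relative difference was 0.28 and 0.26 with no filter, 0.33 and 0.35 with the median transcript length, 0.081 and 0.10 with the longest protein-coding transcript (added after seeing the data) and 0.24 in the Lpar6 knockout with 20 bins. The genes 1.5-fold higher relative to length then numbered 2 and 1 with no filter, 10 and 8 with the median length, 4 in the Cab39l knockout with the coding transcript, 1 in the Lpar6 knockout with 20 bins, 1 and 0 with bins of length and level, 2 in the Lpar6 knockout with a pseudocount of 5 CPM and 3 there with uroplakins at 0.5% of UMIs. Leaving out the deepest 6% of cells and cells with immune UMIs gave the Cab39l knockout a core median of 0.39 and 2 genes 1.5-fold higher. Division by length gave ratios of 2.20, 2.68 and 2.66, and by the longest protein-coding transcript, added after seeing the data, 2.32, 2.82 and 2.80. Why these values moved was not tested, except that the scaling factors shift all genes alike.

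Immune-over-urothelial medians ran from 0.26 to 0.47 in wild type, -0.32 to 0.17 in the Lpar6 knockout and -0.17 to 0.21 in the Cab39l knockout over their alternatives, so only the wild-type sign held throughout. Depth limits the immune sums, with 73 cells in the Lpar6 knockout. With pooled animals and 1 library per group, differences between animals, days or preparations cannot be told apart from genotype.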
